A study of Homo sapiens with 3 samples.

Results

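TIA1 contacts were examined on the transcripts of 9 genes whose proteins build or control nuclear speckles: SON, SRRM1, SRRM2, RBM39, CLK1, CLK4, PNN, ACIN1 and PRPF4B. The members were taken by position alone, as every interval listed on the strand of the gene that shared at least 1 nt with its hg19 interval. They came to 225 of 103134 clusters in replicate 1, 184 of 66222 clusters in replicate 2 and 16 of the 2253 peaks that the authors listed as reproducible. All of them lay wholly inside the 9 intervals, which together span 247803 nt. On the opposite strand of the same intervals each of the 3 lists held 0.

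The data are eCLIP, a method that crosslinks RNA and protein with ultraviolet light, pulls down 1 protein with an antibody and sequences the RNA that comes with it, beside an input taken without the pull-down. The series holds 3 libraries from HEK293T, an established human embryonic kidney line carrying the SV40 large T antigen: 2 precipitated with an anti-TIA1 antibody and 1 input, all from cells given 600 mJ of ultraviolet light. No genotype, drug or time differs between them. The labels disagree on whether the replicates are technical or biological, on HEK293 or HEK293T, and in 1 field on the target of the antibody (Msi1), so the spread between replicates may be technical, and a p-value measures only the difference between these libraries.

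Nuclear speckles are bodies in the nucleus, between the chromatin, where splicing factors are stored, modified and released. Many of their proteins carry stretches rich in serine and arginine, whose phosphorylation by kinases of the CLK family releases splicing factors from the speckle. TIA1 is an RNA-binding protein that prefers U-rich RNA, promotes use of weak 5′ splice sites and, in stressed cells, joins stress granules and restrains translation. Transcripts of the CLK kinases are known to be kept in the nucleus in part with introns retained.

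Per kb of genomic interval, reads in clusters were most dense on SRRM2 and least dense on CLK4. The level was counted as reads in clusters per kb of the genomic interval, introns included, per 1000000 library reads. SRRM2 had 17.0 in replicate 1 and 14.6 in replicate 2, a mean of 15.8 ± 1.8 (SD, n = 2). RBM39 followed with 4.96 and 5.78, and SON with 4.14 and 4.17. CLK1 had 3.24 and 2.94, PNN 2.55 and 2.93, and ACIN1 2.67 and 2.62. SRRM1 had 1.46 and 1.31, PRPF4B 1.36 and 1.27, and CLK4 0.564 and 0.757. The order by mean was therefore SRRM2, RBM39, SON, CLK1, PNN, ACIN1, SRRM1, PRPF4B, CLK4. Among neighbours in that order, the replicates of PNN and ACIN1 overlapped, as did those of SRRM1 and PRPF4B, and the other neighbours did not. No test across samples was made, with 2 precipitated libraries of 1 group. Such levels follow both how much of an RNA the cells hold and how much of it TIA1 touches, which cannot be told apart from clusters alone. They also depend on the interval length used as divisor. In GENCODE v29 the spliced SRRM2 transcript has 9353 nt, for an interval of 19084 nt. That of RBM39 has 2488 nt, for an interval of 38728 nt. An order per kb of spliced transcript could differ and was not computed.

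**Figure D1:**
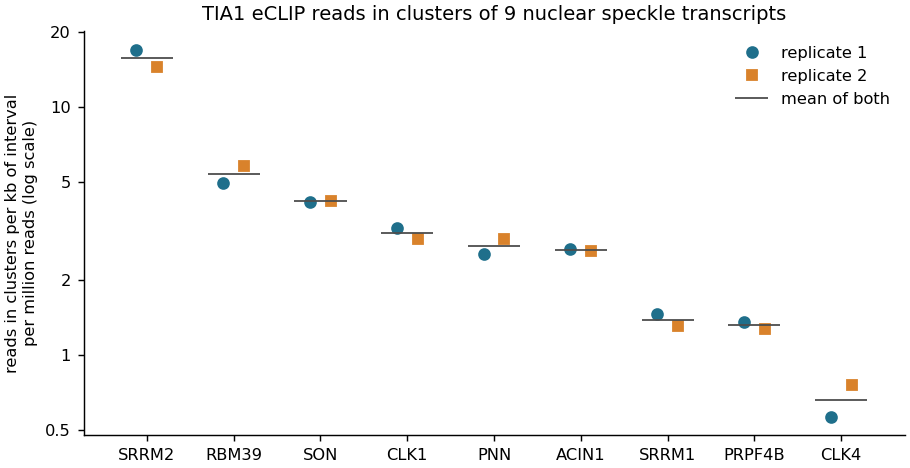
Reads in clusters per kb of genomic interval per 1000000 library reads (log scale), for the 9 transcripts ordered by their mean. Circles are replicate 1, squares replicate 2 and lines the mean; SRRM2 lies highest at a mean of 15.8 and CLK4 lowest.

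Counted as reads, the 9 transcripts held 2512 reads in replicate 1 and 1830 in replicate 2, over the 202 and 170 clusters whose reads could be recovered. These are 936 and 916 reads per 1000000 library reads. Against input numbers of 554 and 539 at the same clusters, the library-scaled log2 ratio was 2.27 and 2.28. Over all clusters of each list the same ratio was 1.80 and 2.01. SON had the highest ratio by mean, 2.80 ± 0.28 (SD, n = 2), and ACIN1 the lowest, 1.77 ± 0.25. SRRM2, the most dense per kb, had a mean ratio of 2.25 ± 0.21, near that of all 9 transcripts. By mean it stood below SON, PNN, RBM39 and CLK4. The input was high on SRRM2 too, with 176 and 185 of the input numbers of 554 and 539. The ratios of CLK1 (1.67 and 2.81) and CLK4 (1.39 and 3.14) differed most between replicates. CLK4 rests on 37 reads in each replicate. Clusters without recovered reads are not in these levels and ratios. On the 9 transcripts they were 23 in replicate 1, none above a log2 fold of 0.09, and 14 in replicate 2, all below 0, while in each whole list 4 of them were enriched. Among them is the SRRM2 cluster of replicate 1 from 2819172 to 2819246 (log2 fold -0.04). Its counterpart in replicate 2 is counted, with 60 reads against 77 in the input. The totals and the SRRM2 values of the replicates thus do not cover the same stretches, nor do the ratios of 2.27 and 2.28.

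A cluster was called enriched at a log2 fold over input of at least 3 and a −log10 p of at least 3, both as the authors give them. In replicate 1, 20 of the 225 clusters (8.89%, exact 95% interval 5.51 to 13.4) were enriched, where 3.09% of all clusters in that list were. In replicate 2, 24 of 184 (13.0%, 8.54 to 18.8) were enriched, where 5.32% of all clusters were. RBM39 had the most in both replicates, 7 of 45 and 7 of 48. SON had 4 of 37 and 6 of 31, and SRRM2 4 of 29 and 4 of 18. PNN had 1 of 8 and 1 of 10, and ACIN1 1 of 28 and 1 of 25. CLK1 had 1 of 19 and 2 of 10. SRRM1 had 2 of 23 in replicate 1 and 0 of 18 in replicate 2. CLK4 (0 of 9 and 1 of 5) and PRPF4B (0 of 27 and 2 of 19) had enriched clusters in replicate 2 alone. Intervals cover counting error only, and clusters on 1 transcript are not independent.

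**Figure D2:**
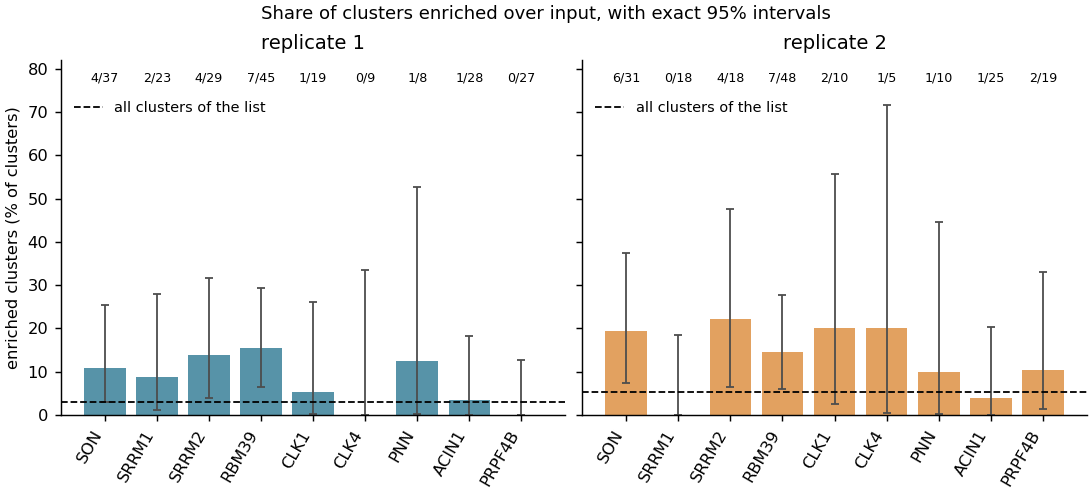
Enriched clusters as a percentage of the clusters on each transcript, in each replicate. Bars are the share, error bars the exact 95% binomial interval, numbers above them enriched over all clusters, and the dashed line the share of the whole list (3.09% and 5.32%); most intervals are wide because a transcript had from 5 to 48 clusters.

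Clusters on the 9 transcripts also held more reads. To be enriched a cluster needed at least 13 reads in replicate 1 and 10 in replicate 2. The median cluster on the 9 transcripts held 7 reads (replicate 1) and 6 reads (replicate 2), where that of each whole list held 4. Among clusters with enough reads, 20 of 48 on the 9 transcripts were enriched in replicate 1 (41.7%), beside 43.1% of all such clusters. In replicate 2 it was 24 of 53 (45.3%), beside 52% of all such clusters. Among clusters with enough reads the 9 transcripts thus stood near the background in both replicates. Within the 9, on ACIN1, 1 of 6 and 1 of 7 clusters with enough reads were enriched, on SRRM2 4 of 14 and 4 of 11, and on SON 4 of 6 and 6 of 9.

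**Figure D3:**
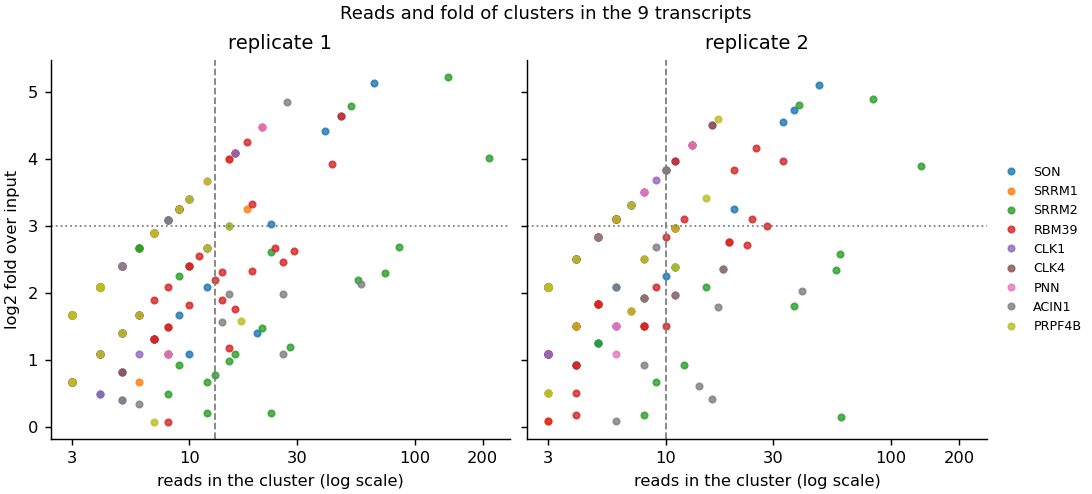
Reads in a cluster (log scale) against its log2 fold over input, for clusters on the 9 transcripts with recovered reads, coloured by gene. The dotted line is the log2 fold of 3, the dashed line the fewest reads of any enriched cluster in the whole list (13 and 10), and clusters of equal values overlap; the steep upper edge is formed by clusters with an input number of 1.

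All 20 enriched clusters of replicate 1 met a cluster in replicate 2, where 95.1% of all enriched clusters of that list did, and 15 met an enriched cluster (75%, beside 63.4%). Of the 24 of replicate 2, 22 met a cluster (91.7%, beside 95.1%) and 14 an enriched cluster (58.3%, beside 57.1%). Over 118 clusters of replicate 1 that met a cluster of replicate 2, the median absolute difference in log2 fold was 0.39. By transcript it ran from 0.12 over the 13 pairs on SRRM2, the most deeply covered transcript, to 0.84 over the 3 on CLK4. It was 0.65 over the 21 pairs on SON, 0.42 over the 29 on RBM39 and 0.39 over the 18 on ACIN1.

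The 16 reproducible peaks were spread over 6 of the 9 transcripts: 6 on RBM39, 4 on SRRM2, 3 on SON, and 1 each on SRRM1, PNN and ACIN1. The kinase transcripts CLK1, CLK4 and PRPF4B had 0. The median log2 fold over input of the 16 was 4.31 (19.9-fold), with a range of 3.29 to 5.12, beside a median of 4.15 over all 2253 peaks. Of the 16, 10 lay above that median. Their median width was 53 nt, equal to that of the whole list. In the separate replicates the medians were 4.44 and 4.13, and all 16 reached a log2 fold of 3 in both, as did 95.2% of all peaks.

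No single peak was called different between replicates. The exact binomial test (two-sided), against the 57.3% of reads that replicate 1 holds in the library totals and with Benjamini-Hochberg adjustment over 2247 peaks, called 0 of the 16, beside 1.82% of all peaks. At an unadjusted p under 0.05 it also called 0 of the 16, beside 10.2% of all peaks, and the lowest adjusted p was 0.558. Replicate 1 held 60.1% of the reads at the 16 peaks (exact 95% interval 57.4 to 62.7), slightly above the library share, beside 56.3% at all peaks.

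Input numbers were low, which widens the error of every fold. The input number was 1 at 7 of the 16 peaks (43.8%), beside 51.3% of all peaks, and the 16 together held 798 and 530 reads against 39 in the input. The exact 95% counting interval of the ratio over input was above 0 on the log2 scale for all 16 in both replicates. Lower bounds ran from 1.20 to 3.83 in replicate 1 and from 1.02 to 3.48 in replicate 2. The peaks were listed for a high fold on these same reads, so bounds above 0 are no separate evidence. For 3 peaks the lower bound itself reached a log2 fold of 3, in both replicates: 1 on SON and the abutting 2 on SRRM2. Both replicates were divided by the same input, so the SD between them does not hold the error of the input.

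**Figure D4:**
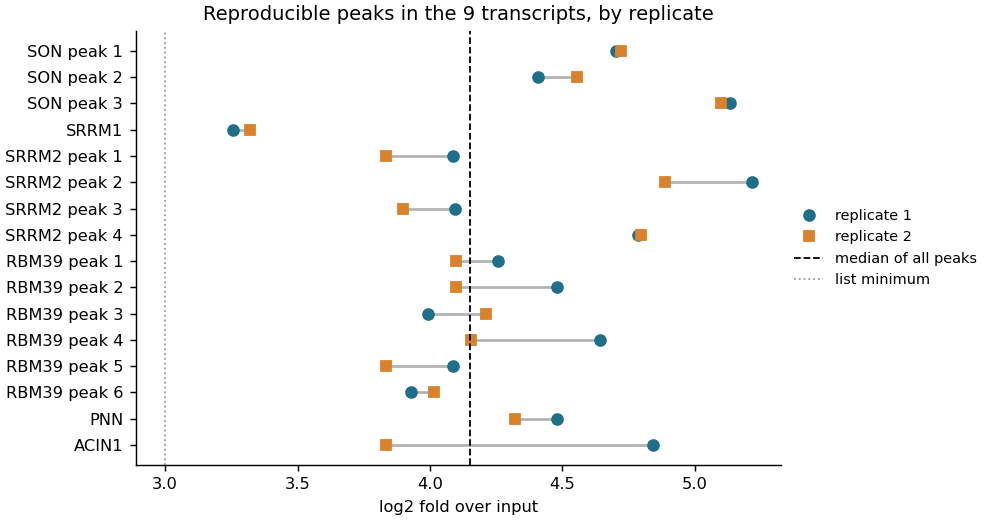
Log2 fold over input of the 16 reproducible peaks in replicate 1 (circles) and replicate 2 (squares), numbered by rising coordinate within a gene, with the median of all peaks (4.15, dashed) and the lower limit of the list (3, dotted). The replicates lie within 0.49 of each other except at ACIN1, where they are 1.01 apart.

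SRRM2 encodes a very large protein rich in serine and arginine that forms the core of the speckle. Its interval is on chromosome 16 from 2802330 to 2821413, plus strand, and its 4 peaks lay in the last of 3 equal parts of it, with 3 of them 23, 246 and 343 nt from the 3′ end. The most deeply covered, from 2821071 to 2821167, held 209 and 136 reads in the replicates against 13 in the input. Its log2 fold was 4.09 (counting interval 3.29 to 5.03) and 3.90 (3.08 to 4.85), and its −log10 p of 34.2 was the highest of the 16 peaks. Directly before it, the peak from 2821026 to 2821070 held 140 and 83 reads over 4 in the input, with log2 folds of 5.22 (3.83 to 7.11) and 4.89 (3.48 to 6.80). No base lies between the abutting peaks, and the upstream one had the higher fold.

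The peak nearest the 3′ end of SRRM2, from 2821338 to 2821390, ended 23 nt before it. It had 52 and 39 reads over 2 in the input, and the log2 folds of 4.79 and 4.80 were nearly equal. Further upstream, the peak from 2820150 to 2820180 had 16 and 10 reads over 1 (4.09 and 3.84). In all, enriched clusters held 48.3% of the recovered reads on SRRM2 in each replicate, beside 16.3% and 20.8% over the whole lists. This was not particular to SRRM2: on SON the share was 45.4% and 55.7%, and on all 9 transcripts 34.8% and 36.2%.

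Other stretches of SRRM2 were covered well but not enriched. A cluster from 2809915 to 2809974 held 85 reads over 14 in replicate 1 (log2 fold 2.69), and its counterpart in replicate 2 59 over 14 (2.59). A cluster from 2819303 to 2819366 held 74 reads over 16 (2.30), and its counterpart 57 over 16 (2.35). From 2819169 to 2819267, replicate 2 had 60 reads over an input number of 77, a log2 fold of 0.15. The overlapping cluster of replicate 1, from 2819172 to 2819246, stood at -0.04. All of these stretches lay upstream of the 4 peaks, and the input was high in them too. Unenriched clusters of replicate 1 also lay among the peaks. From 2820937 to 2820960 it held 21 reads over 8 (1.48), and from 2821313 to 2821322 16 over 8 (1.09). Neither had a counterpart in replicate 2.

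SON encodes a further large speckle scaffold, needed for splicing of weakly defined introns. On its interval, chromosome 21 from 34914924 to 34949812, plus strand, it held the peak with the highest mean fold of the 16. This peak, from 34945357 to 34945398, held 66 and 48 reads in the replicates against 2 in the input. Its log2 fold was 5.13 (counting interval 3.22 to 8.21) and 5.10 (3.17 to 8.18), with a mean of 5.12 ± 0.024 (SD, n = 2). It ranked 217 of the 2253 peaks by fold. From 34932121 to 34932176, near the middle of the interval, a peak held 49 and 37 reads over 2 (4.70 and 4.72). The third peak, from 34941625 to 34941672, held 40 and 33 reads over 2 (4.41 and 4.56). All 3 were above the list's median in both replicates.

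Replicate 2 alone had 3 further enriched clusters on SON. From 34942453 to 34942505 it held 13 reads over 1 (4.21), where the overlapping cluster of replicate 1 had 15 over 2 and just missed the threshold at a log2 fold of 2.99. From 34944167 to 34944205 replicate 2 held 20 reads over 3 (3.25) and replicate 1 12 over 3 (2.09). From 34942678 to 34942710 it held 11 reads over 1 (3.97), and replicate 1 listed no cluster there. All 3 lie between the peaks that start at 34941625 and 34945357.

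RBM39 encodes a splicing factor related to the U2AF subunit that reads the end of introns. It had 6 peaks, the most of the 9 transcripts, spaced widely over its interval on chromosome 20 from 34291531 to 34330258, minus strand. Of 3 equal parts counted from the 5′ end, the first held 3 of them, the middle 1 and the last 2. The peak nearest the 5′ end, from 34328634 to 34328702, lay 1556 nt into the interval and held 43 and 34 reads against 3 in the input (log2 fold 3.93 and 4.02). The peak from 34319780 to 34319841 held 47 and 25 reads over 2 (4.64 and 4.16), the highest mean fold on RBM39 at 4.40.

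The other RBM39 peaks each stood against 1 in the input. The peak from 34322028 to 34322080 held 16 and 10 reads (4.09 and 3.84), and the one from 34317311 to 34317363 held 15 and 13 (3.99 and 4.21). Within the bounds that replicate 2 set for its own cluster at the latter, from 34317305 to 34317347, it held 12 reads over 2 and was not enriched (3.10, −log10 p 2.85). Toward the 3′ end, the peak from 34295774 to 34295826 held 21 and 12 reads (4.48 and 4.10) and the one from 34295184 to 34295220 18 and 12 (4.26 and 4.10), separated by 553 nt. Folds on RBM39 were lower and more even than on SON, between 3.96 and 4.40 by mean. None was within 1000 nt of the 3′ end.

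Between the peaks, RBM39 had enriched clusters of 1 replicate. From 34326812 to 34326862 replicate 2 held 24 reads over 4 in the input (3.10), and replicate 1 also held 24 over 4 (2.67). These have equal reads and differ in fold through library size. From 34317155 to 34317221 replicate 1 held 19 over 2 (3.34), and replicate 2 11 over 2 (2.97). A cluster of replicate 2 from 34327041 to 34327077 held 13 reads over 1 (4.21) with no counterpart. In all, the first of the 3 parts of RBM39 held 21 of its 45 clusters in replicate 1 and 20 of 48 in replicate 2.

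SRRM1, PNN and ACIN1 encode proteins that join the spliced mRNA as coactivators or at the edge of the exon junction complex, and each had 1 peak. On PNN (pinin; chromosome 14, plus strand), the peak from 39651373 to 39651423 held 21 and 14 reads against 1 in the input (log2 fold 4.48 and 4.32), and ended 999 nt from the 3′ end. On SRRM1 (chromosome 1, plus strand), the peak from 24989305 to 24989359 held 18 and 14 reads over 2 (3.26 and 3.32). It was the lowest of the 16 and ranked 2052 of 2253 by fold. The cluster that replicate 2 listed there, from 24989305 to 24989353, held 11 reads over 2 and was not enriched (2.97). A second enriched cluster of replicate 1 on SRRM1, from 24977151 to 24977224, held 15 reads over 1 (3.99), against 5 over 1 (2.84) in replicate 2.

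On ACIN1 (chromosome 14, minus strand), a component with RNPS1 and SAP18 of a complex that modulates splicing, the replicates were farther apart than at any other of the 16 peaks. The peak from 23544621 to 23544691 held 27 and 10 reads in the replicates against 1 in the input. The log2 folds were 4.84 and 3.84 (mean 4.34 ± 0.71, SD, n = 2). By the exact binomial test this difference had p = 0.0666 and an adjusted p of 0.558. The peak lay in the middle of 3 equal parts of the interval, while 19 of 28 clusters in replicate 1 and 17 of 25 in replicate 2 lay in the last. The most deeply covered ACIN1 cluster, from 23538615 to 23538668, held 58 reads over 14 in replicate 1 (2.14), and its counterpart 40 over 14 in replicate 2 (2.03).

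The 3 kinase transcripts had no listed peak, though each had an enriched cluster in at least 1 replicate. CLK1 and CLK4 encode kinases that phosphorylate the serine and arginine rich proteins of the speckle, and PRPF4B encodes a kinase of the tri-snRNP. On CLK1 (chromosome 2, minus strand), replicate 1 had 16 reads against 1 in the input from 201724310 to 201724373 (log2 fold 4.09), and replicate 2 had 9 over 1 there (3.68) with a −log10 p of 2.67. Close by, from 201724776 to 201724825, the reverse held: replicate 2 had 10 reads over 1 (3.84) and replicate 1 10 over 1 (3.41) with a −log10 p of 2.29. Both stretches thus had log2 folds above 3 in both replicates and missed the p threshold in 1. At the third CLK1 stretch, from 201719661 to 201719704, replicate 2 had 16 reads over 1 (4.51) and replicate 1 had 5 over 1 (2.41).

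On CLK4 (chromosome 5, minus strand), replicate 2 had 16 reads against 1 in the input from 178049344 to 178049377 (log2 fold 4.51, counting interval 1.83 to 9.90), and replicate 1 had 3 over 1 (1.67). The CLK4 cluster of replicate 1 with the highest −log10 p, from 178050205 to 178050236, reached only 0.941, with 5 reads over 1 (2.41). On PRPF4B (chromosome 6, plus strand), replicate 2 had 17 reads over 1 from 4056656 to 4056732 (4.60, counting interval 1.93 to 9.99). Replicate 1 had 12 over 1 there (3.67) and missed the p threshold at 2.86. A second stretch of PRPF4B, from 4061636 to 4061685, had 15 reads over 2 in replicate 2 (3.42) and 5 over 2 in replicate 1 (1.41). The highest −log10 p of replicate 1 on PRPF4B was at 4053144 to 4053201, with 15 reads over 2, and its log2 fold of 2.99 just missed the threshold, as did the 2.97 of replicate 2 there. An enriched call needed more reads than most kinase clusters held: their medians lay between 4 and 6.5 reads in each transcript and replicate. This was not particular to the kinase transcripts. In replicates 1 and 2 the median was 4 and 5 reads on SRRM1 and 6.5 and 5.5 on PNN. On ACIN1 it was 6 and 7.5, and each of these transcripts had a peak. Only on SRRM2 (15 and 12) was the median above the reads needed. Whether low reads account for the missing kinase peaks was not tested. No difference between kinase and other transcripts was tested.

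**Figure D5:**
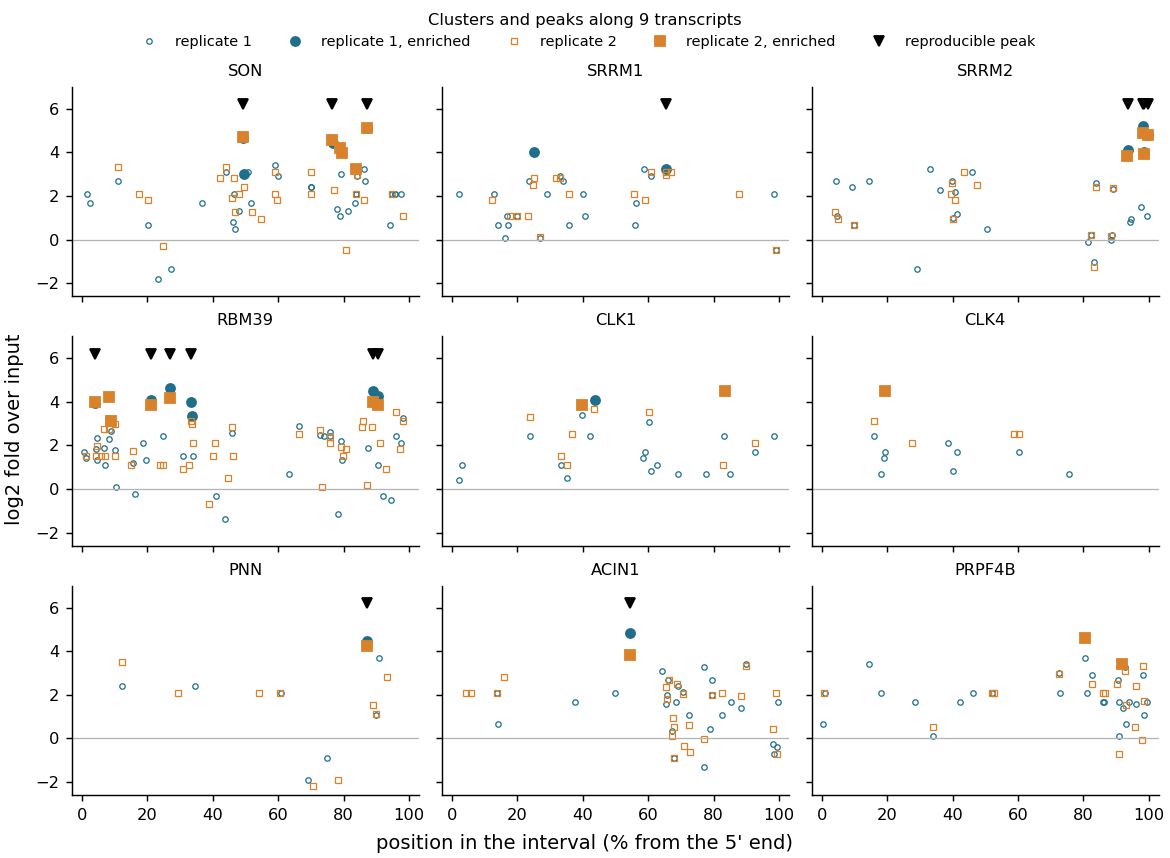
Each cluster on the 9 transcripts by its position in the interval, from the 5′ to the 3′ end in percent, and its log2 fold over input. Open symbols are unenriched and filled ones enriched clusters of replicate 1 (circles) and replicate 2 (squares), and triangles, at a fixed height, mark the places of the 16 reproducible peaks; those of SRRM2 crowd at the 3′ end and those of RBM39 are spread.

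Of 3 equal parts of each interval, the last held 9 of the 16 peaks, the middle 4 and the first 3. The last part held 44.9% of all clusters on the 9 transcripts in replicate 1 and 46.2% in replicate 2. Within 1000 nt of the 3′ end lay 4 peaks (25%), 3 on SRRM2 and 1 on PNN. The same window held 9.78% of clusters on the 9 transcripts in replicate 1 and 9.24% in replicate 2. The share over all listed peaks was not computed.

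Some clusters lay below the input, 20 in replicate 1 (8.89%, beside 5.68% of the whole list) and 14 in replicate 2 (7.61%, beside 3.98%). ACIN1 had 5 in each replicate, RBM39 6 and 1, and SRRM2 4 and 1. CLK1 and CLK4 had 0. The lowest log2 folds were on PNN, with -1.91 in replicate 1 from 39649940 to 39649960 and -2.17 in replicate 2 from 39650011 to 39650100. These are neighbouring stretches and do not overlap. In 5 cases a cluster below the input overlapped one below it in the other replicate: 3 on ACIN1, 1 on SRRM2 and 1 on SRRM1. On SRRM2 the pair stood at -1.02 and -1.24.

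The letters of the transcripts were read from GENCODE v29, whose build is GRCh38, so that no position was carried over from hg19 and no cluster was assigned to an exon, an intron or a UTR. All 9 genes had a principal transcript there. The genomic span of the SRRM2 transcript, 19084 nt, equals its hg19 interval, as does that of CLK4, 24451 nt. The last exon of that SRRM2 transcript is 555 nt long and its 3′ UTR 545 nt. The U content of the 3′ UTR ranged from 27.5% (ACIN1) and 29.4% (SRRM2) to 41.1% (SRRM1) and 43.1% (CLK1), beside a median of 29.4% over 18398 protein-coding genes. SON had 33.4%, RBM39 35.4%, PRPF4B 36.6%, CLK4 37.3% and PNN 39.4%. By U content of the whole 3′ UTR the transcripts therefore stand in another order than by reads. SRRM2, with the highest density of reads per kb of interval, was near the median. SRRM1 and CLK1, with 1 and 0 peaks, were at percentiles 98.9 and 99.5. The orders cover different regions, as reads and peaks were counted over whole intervals, introns included. Whether U content goes with TIA1 contacts was not tested. Stretches of 5 or more U, searched on the transcript strand only, occurred in the 3′ UTR of all 9, from 2 on SON to 13 on SRRM1, and in 74.3% of all 3′ UTRs.

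Other genes share these intervals in the same annotation. On the same strand these are small RNA genes, MIR6501 in SON, RF00019 in CLK1 and RN7SKP70 in CLK4, whose reads the lists would not tell apart from those of the host. GART and DONSON (SON), SRRM2-AS1 and ELOB (SRRM2), AL132639.3 (PNN), C14orf119 (ACIN1) and FAM217A (PRPF4B) overlap on the opposite strand, where the lists held 0 clusters and 0 peaks inside the 9 intervals.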

How the data were processed

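The submitters' processing notes name STAR 2.4.0i, SAMtools 1.4.1, cutadapt (1.9.1 and 1.14) and the build hg19, with no order. How clusters were called is not given in the sources used here. No header stands in the deposited lists. Their −log10 p-value and log2 fold over input, both the authors', were identified from the values, and the −log10 p stops at 400. Lists were called per replicate, and 1 further list holds reproducible peaks of both. The input had no file of its own used here.

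Depth was recovered from the steps of the log2 fold: 2683407 reads in replicate 1, 1997817 in replicate 2 and 2851338 in the input. Reads of a cluster are the whole numbers that return its fold and p-value (relative tolerance 2e-05, absolute tolerance of −log10 p 3e-06), found for 89.6% and 96.0% of clusters. On the 9 transcripts those left out lie near or below the input, and in each whole list 4 of them are enriched. Where the input number is 1, 0 or 1 reads may have been there. The form of the authors' p-value (Fisher's exact test at numbers under 5, otherwise chi-square with Yates' correction) was found by trial on these data. At a peak the fold of the replicate that did not supply the bounds was derived from the listed mean, which gave whole reads of both (tolerance 1e-04) at 2247 of 2253 peaks, all 16 on these transcripts among them. Counting intervals of a ratio are exact binomial (95%) and cover counting error only. Recovery and the exact binomial test were tested on simulated data. Python 3.11.15, scipy 1.17.1 and pandas 2.3.3 were used.

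Overlap meant at least 1 nt. All reproducible peaks on the 9 transcripts are named, and so are enriched clusters outside them. Those outside peaks on transcripts that have peaks, and all clusters named as well covered or below the input, were chosen after their values were seen. For a transcript without a peak, the rule named the cluster with the highest −log10 p of each replicate. The members and lists were chosen with earlier results of these data known. Other speckle genes and the letters of the sites need an hg19 annotation or genome and were not analysed here. Alternatives were other thresholds, adjusted p-values, whole containment, the opposite strand, each replicate alone, other scaling between replicates and a minimum of 20 reads.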

Additional observations from a re-analysis of the deposited data

How the results depend on the processing

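Of 26 settings tried on the main results, 18 kept a count within 1.5 times or a median within the SD between replicates. With thresholds of 4 (log2 fold) and 5 (−log10 p), replicate 1 had 10 enriched clusters (4.44%, beside 0.886% of the whole list). Replicate 2 had 9 (4.89%, beside 1.51%). Reproducible peaks then numbered 6, on 3 transcripts (SON, SRRM2 and RBM39), with a median log2 fold of 4.75. The share of all listed peaks passing these thresholds was not computed. At a log2 fold of 1, replicate 1 had 31 enriched clusters (13.8%, beside 4.14%). The opposite strand gave 0 enriched clusters in each replicate and 0 peaks. Without 1 of the replicates, peaks overlapped by an enriched cluster of the other numbered 14 to 16, and their median log2 fold was 4.13 to 4.44. The SRRM1 peak and 1 on RBM39 were those without an enriched cluster of replicate 2. Restricting to clusters with enough reads and joining abutting peaks (15) were chosen after seeing the data. Without SRRM2, 8.16% and 12.05% of clusters were enriched, and enriched clusters held 27.6% and 31.0% of the reads, against 34.8% and 36.2% with it. The call between replicates stayed at 0 of 16 under both other settings. No paired analysis was possible because both replicates share 1 input, which has no file used here. The median cluster rests on 7 and 6 reads.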
